A study of Bos taurus with 18 samples.

Results

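The genes described here are 42 genes of mitosis and the mitotic spindle, chosen by symbol: cyclins and kinases of mitotic entry, kinetochore and centromere proteins, spindle motors, checkpoint kinases, the chromosomal passenger complex, cytokinesis factors and regulators of mitotic exit, with the proliferation marker MKI67. Each symbol stood on exactly 1 of the 38001 rows of the count table, and all 42 passed the filter on low counts that left 19638 genes for testing. RNA came from the endometrium of 6 Holstein cows (Bos taurus), collected by cytobrush from the horn that lay on the side of the corpus luteum. Each cow gave 3 samples, which makes 18 libraries in 6 groups of 3 cows. All cows were synchronized by Ovsynch in both of the cycles sampled, and day 0 was the day of estrus.

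In the first cycle no progestin was given, and cows were sampled on day 4 and day 7; these are the untreated groups. In the second cycle cows A to C received, on day 4, a depot injection of 100 mg 17α-hydroxyprogesterone caproate with 10 mg progesterone (the 17-OHPC/P4 arm), cows D to F received 100 mg progesterone (the P4 arm), and both were sampled on day 7. The doses differ between the arms. The treated samples all come from the second cycle and the untreated samples from the first, so treatment and cycle cannot be told apart. All cows were of the same breed, and their ages were not used here. Comparisons within an arm share libraries, so their values are set side by side and were not combined.

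As background, a cell enters mitosis when cyclin B with CDK1 phosphorylates its targets. Microtubules of the spindle attach to the chromosomes at kinetochores, and the spindle checkpoint holds the cell until every kinetochore is attached. The anaphase-promoting complex with CDC20 then releases the sister chromatids and destroys the cyclins. Transcripts of these genes rise together late in the cell cycle under FOXM1 and related factors, so their level in a tissue follows the share of dividing cells. In the endometrium, estrogen drives division of the epithelium around estrus, and luteal progesterone brings it down. In bulk samples such as these, fewer dividing cells and less RNA per cell cannot be told apart.

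Libraries held 29347255 to 40733544 counts. Levels are given as CPM, a gene's counts scaled to a common library total, changes as log2 fold changes with their standard error (SE), and a gene was called at an adjusted p under 0.05 in edgeR's quasi-likelihood test with Benjamini-Hochberg adjustment over all genes tested. Epithelial markers were high in every library (summed level of 8 genes 2079 to 4931 CPM, with no marker at 0 in any library). The 3 libraries of cow C stood apart: red blood cell markers summed to 379 to 4312 CPM against 0.948 to 5.76 in the other 15 libraries, stromal markers to 2949 to 6004 against 58.8 to 2626, and B and plasma cell markers to 63.8 to 225 against 4.63 to 35.4. Counts of calls that rest on cow C are therefore also given without it, a choice made after seeing the data.

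Mitosis genes were abundant on day 4 in 4 of the 6 cows and low on day 7 in those same cows. Summed over the 40 genes other than SPC24 and CCNB1, the untreated day 4 level was 1880, 348 and 777 CPM in cows A, B and C, and 1431, 3667 and 2251 CPM in cows D, E and F. On untreated day 7 the same sum was 219, 415 and 829 CPM in cows A, B and C, and 228, 308 and 603 CPM in cows D, E and F. Cows A, D, E and F lay lower on day 7 than on day 4, whereas cows B and C lay higher. SPC24 and CCNB1 were left out of this sum because they ran the other way. With them the sum was 2204, 388 and 821 CPM in cows A, B and C on day 4 and 646, 617 and 1066 CPM on day 7, and 1584, 3782 and 2314 CPM in cows D, E and F on day 4 and 867, 693 and 762 CPM on day 7, with the same cows lower and higher. On treated day 7 the sum was 233, 387 and 684 CPM in cows A, B and C, and 159, 380 and 119 CPM in cows D, E and F. The lowest of these 40-gene sums over the 18 libraries were those of cows D and F after progesterone. Over all 42 genes the lowest sums were those of cow B on untreated day 4 (388 CPM) and day 7 (617 CPM), followed by treated cows F (627 CPM) and D (634 CPM).

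**Figure D1:**
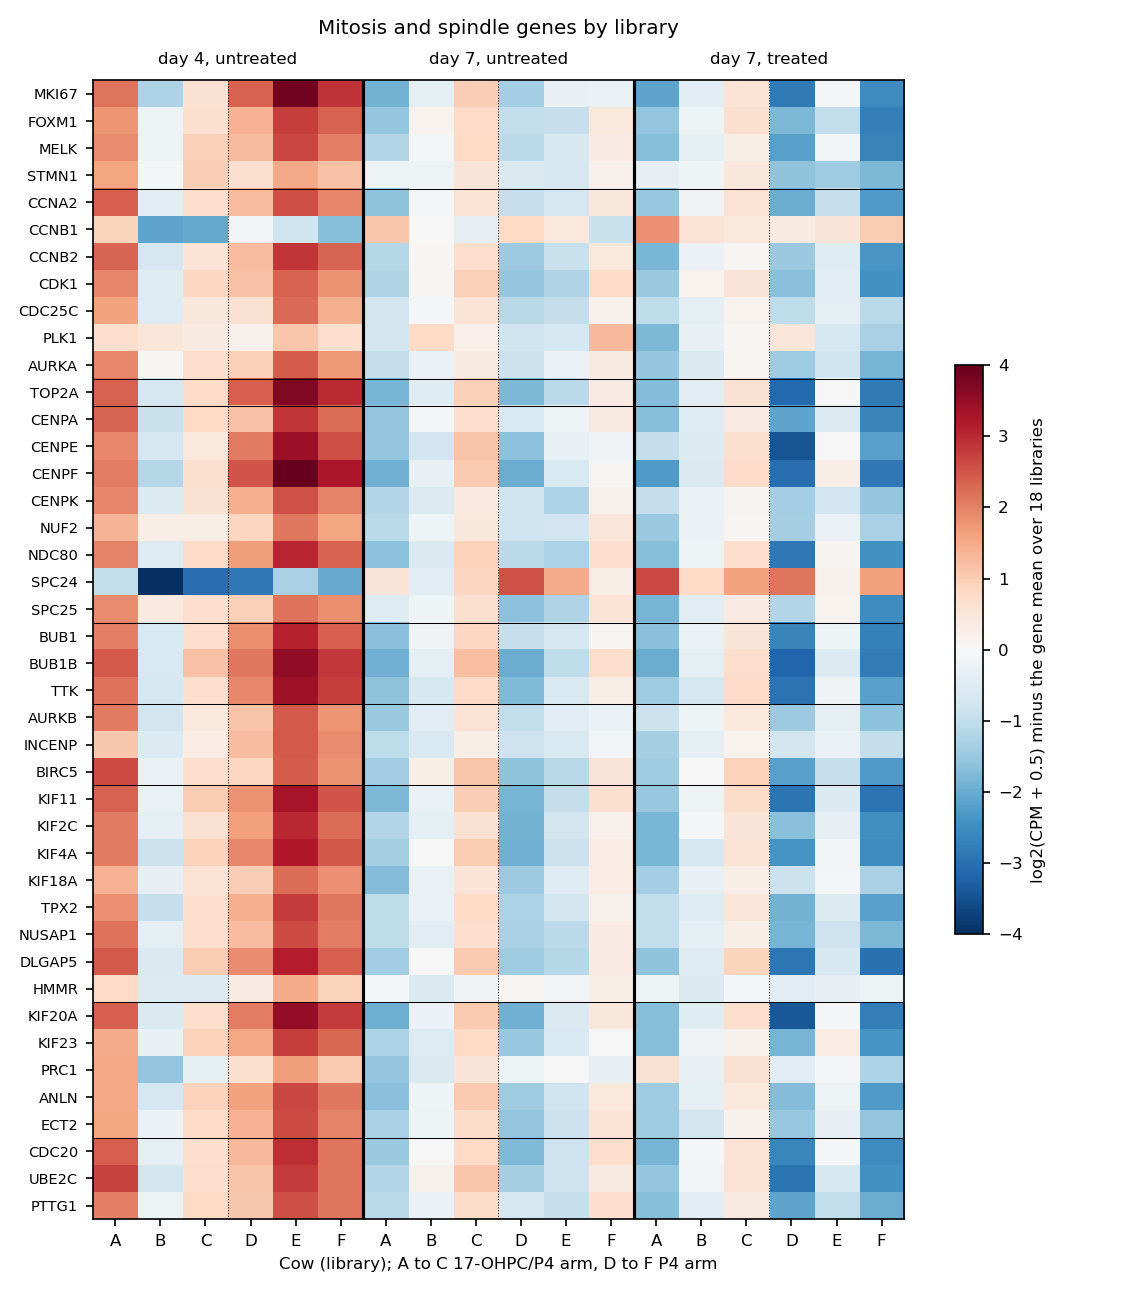
Level of each of the 42 genes (rows, grouped by role) in each of the 18 libraries (columns), as log2(CPM + 0.5) minus the mean of that gene over the libraries, with red above and blue below that mean. Day 4 of cows A, D, E and F is red for nearly all rows, cow C is near or slightly above the mean in every column, and the rows of SPC24 and CCNB1 run the other way.

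The genes moved as a block across libraries. The day 4 library of cow E was the highest of all 18 for 35 of the 42 genes, and the treated libraries of cows F and D were the lowest for 18 and 14 of them. For 40 of the 42 genes the median Pearson correlation of log2 CPM with the other 41 genes was positive, and for 37 it lay above 0.85. These correlations run over 18 libraries that share 6 cows, and they are given as a description. HMMR (0.57), PLK1 (0.58) and PRC1 (0.65) followed the others less closely, and SPC24 (-0.58) and CCNB1 (-0.50) ran against them. The median SD of log2 CPM over the libraries was 1.62 for the 42 genes and 0.62 for all genes tested.

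The first comparison asked how these genes changed from day 4 to day 7 of the untreated cycle. Over both arms, 12 of the 42 genes fell, 1 rose and 29 did not pass, against 10.6% of all genes tested that were called in either direction. The median log2 change was -1.79 for the 42 genes and -0.05 for all genes tested. Values were negative for 40 of the 42 (53.9% of all genes tested), and 38 had an unadjusted p under 0.05 (5275 of the 19638 genes tested). The genes that fell were MKI67, STMN1, AURKA, TOP2A, CENPK, AURKB, INCENP, KIF2C, TPX2, NUSAP1, KIF23 and ECT2, and the gene that rose was SPC24. With the cow as a block, 14 fell and 2 rose, while calls over all genes tested went from 2073 to 3272. DESeq2 called 36 lower and 1 higher, leaving out only CCNB1, CDK1, PLK1, HMMR and PRC1. Its count over all genes is not given here. Without cow C, 11 fell and 1 rose. In the account by role below, whether a gene passed is judged by edgeR.

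The count of called genes rested on single libraries. It was 2 when the day 4 library of cow E was left out, and also 2 for the day 7 library of each of cows A, B, D and E. It was 3, 4, 6 and 8 when the day 4 library of cow F, A, C and D was left out. It was 18 without the day 4 library of cow B, and 24 and 26 without the day 7 library of cow C and F. SPC24 and INCENP kept their call without any 1 of the 12 untreated libraries (adjusted p up to 0.0241 and 0.0441). The other 11 called genes lost it without 5 to 10 of the 12.

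Among proliferation markers and regulators, 2 of 4 genes fell. MKI67 (ENSBTAG00000002444), which encodes the Ki-67 protein that coats mitotic chromosomes, stood at 158, 14.4 and 53.4 CPM in cows A, B and C on day 4 and at 183, 512 and 263 CPM in cows D, E and F. On untreated day 7 it stood at 8.97, 26.8 and 68.9 CPM in cows A, B and C and at 13.4, 28.1 and 29 CPM in cows D, E and F. It was lower on day 7 in 4 of 6 cows and higher in B and C, and the groups overlapped. Its log2 change was -2.31 ± 0.70 (SE, adjusted p = 0.0475), a call lost without 10 of the 12 libraries (adjusted p up to 0.128, without the day 7 library of cow D). STMN1, encoding stathmin, which takes apart microtubules, went from a median of 147 CPM (66.4 to 206) to 60.4 CPM (43.2 to 98.3), lower in 6 of 6 cows. It changed by -1.04 ± 0.26 (adjusted p = 0.0228), a call lost without 5 of the 12 libraries, at most with an adjusted p of 0.0681 without the day 7 library of cow A. FOXM1, the transcription factor of late cell cycle genes, had -1.77 ± 0.64 (adjusted p = 0.0891), and the kinase MELK had -1.72 ± 0.63 (0.0919); neither passed.

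Among mitotic entry kinases and cyclins, 1 of 7 genes fell. AURKA, the Aurora kinase of spindle poles, had a median of 12.9 CPM (4.87 to 27.4) on day 4 and 3.89 CPM (2.17 to 6.19) on day 7. It was lower in 6 of 6 cows, by -1.62 ± 0.44 (adjusted p = 0.0323, up to 0.0932 without the day 4 library of cow E, and lost without 7 of the 12). CCNA2, cyclin A2 of S phase and early mitosis, had -1.84 ± 0.58 (adjusted p = 0.0548), CCNB2, a second B-type cyclin, -1.98 ± 0.66 (0.0697), CDC25C, the phosphatase that activates CDK1, -1.60 ± 0.51 (0.0605), and CDK1 itself -1.42 ± 0.57 (0.123). PLK1, the Polo-like kinase of centrosomes and kinetochores, had -0.23 ± 0.42 (adjusted p = 0.778), the value nearest to 0 of all 42. CCNB1, cyclin B1, had a positive value and is described with SPC24.

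TOP2A, the topoisomerase that untangles sister chromatids, changed by -2.43 ± 0.72 (adjusted p = 0.0456; lost without 9 of the 12 libraries, up to 0.119 without the day 7 library of cow D). Its day 4 levels were 165, 19.3 and 53.8 CPM in cows A, B and C and 169, 420 and 253 CPM in cows D, E and F. On day 7 they were 8.42, 22.5 and 61.4 CPM in cows A, B and C and 8.74, 14.8 and 39.9 CPM in cows D, E and F. As for MKI67, cows A, D, E and F were lower on day 7 and cows B and C higher.

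**Figure D2:**
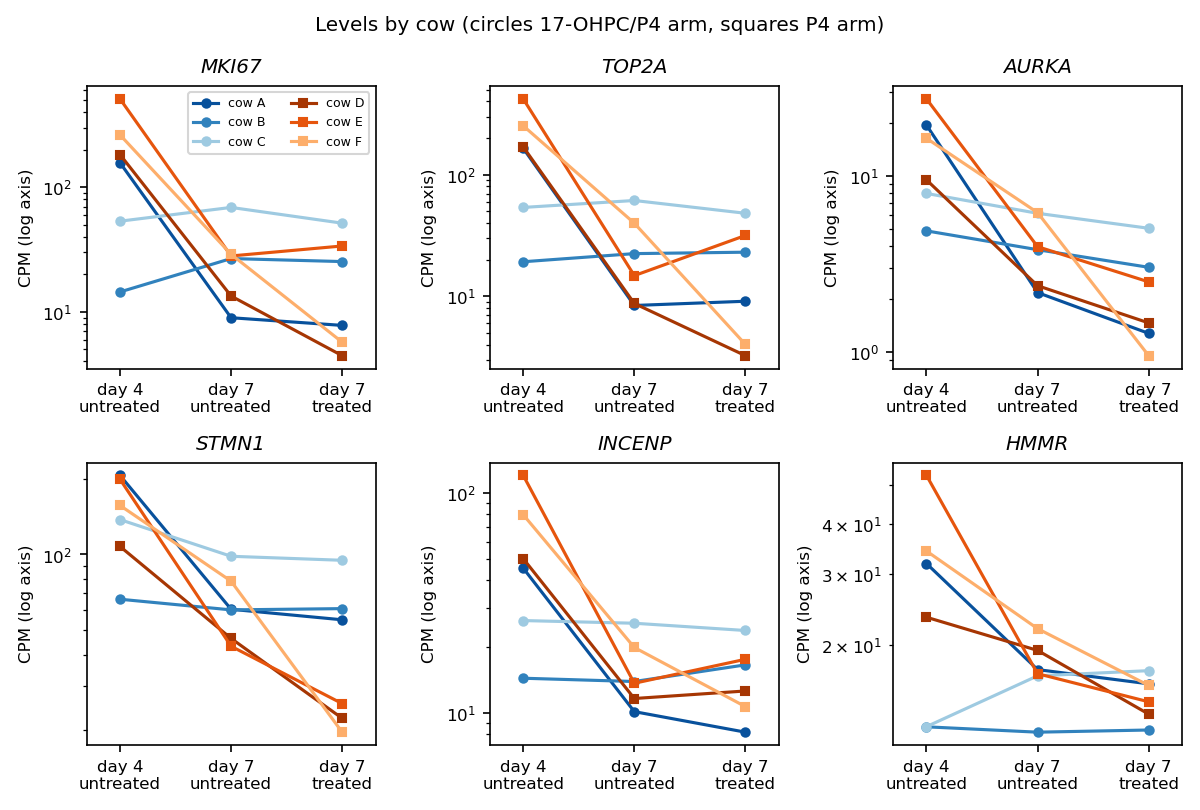
CPM on a log axis for MKI67, TOP2A, AURKA, STMN1, INCENP and HMMR, with 1 line per cow over untreated day 4, untreated day 7 and treated day 7 (circles 17-OHPC/P4 arm, squares P4 arm). The lines of cows A, D, E and F drop from day 4 to day 7 in the first 5 panels, those of cows B and C are higher on day 7 than on day 4 for MKI67 and TOP2A (MKI67 in cow B 14.4 and 26.8 CPM), and the treated STMN1 levels of cows D, E and F (22.3, 25.5 and 19.7 CPM) lie below those of cows A, B and C (55.0, 60.9 and 94.8 CPM).

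Of 8 centromere and kinetochore genes, CENPK fell and SPC24 rose. CENPK, a subunit of the inner kinetochore, had -2.38 ± 0.68 (adjusted p = 0.0382; 0.0580 with the cow as a block, and 0.101 without the day 7 library of cow D). CENPF, which loads on kinetochores late in G2 phase, had -2.41 ± 0.78 (adjusted p = 0.0621), and CENPE, a kinetochore motor, -2.05 ± 0.70 (0.0752). The block moved both past the threshold (0.0441 and 0.0342). CENPA, the centromeric histone H3 variant, had -1.80 ± 0.65 (0.0906). SPC24 and SPC25 form one end of the NDC80 complex, and NUF2 and NDC80 the other end, which binds microtubules. NUF2 had -1.29 ± 0.40 (0.0555), NDC80 -1.92 ± 0.77 (0.123) and SPC25 -1.57 ± 0.56 (0.0865, lower in 6 of 6 cows), none of which passed, so SPC24 differed in sign from its 3 partners.

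None of the 3 spindle checkpoint kinases passed in edgeR without the block, whereas DESeq2 called all 3. BUB1, which recruits checkpoint proteins to kinetochores, had -1.98 ± 0.65 (adjusted p = 0.0640), BUB1B, which encodes the checkpoint protein BubR1, -2.25 ± 0.79 (0.0810), and TTK, the kinase MPS1, -2.33 ± 0.78 (0.0705, and 0.0404 with the block). BUB1B had a median of 45.0 CPM (5.52 to 107) on day 4 and 5.4 CPM (1.83 to 21.1) on day 7, and the groups overlapped. BUB1 passed without the day 7 library of cow C (0.0433) and without the day 4 library of cow B, and BUB1B passed without the day 7 library of cow F (0.0391) or C.

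In the chromosomal passenger complex, which corrects faulty attachments and directs cytokinesis, 2 of 3 genes fell. INCENP, its scaffold, stood at 45.4, 14.4 and 26.3 CPM in cows A, B and C and at 50.2, 120 and 79.4 CPM in cows D, E and F on day 4. On day 7 it stood at 10.1, 13.9 and 25.5 CPM in cows A, B and C and at 11.6, 13.6 and 19.8 CPM in cows D, E and F. The day 7 values were thus within 10.1 to 25.5 CPM in all cows, and the spread lay in day 4. The change was -1.49 ± 0.33 (adjusted p = 0.0134, lower in 5 of 6 cows by the normalized values). AURKB, the kinase of the complex, changed by -1.78 ± 0.50 (adjusted p = 0.0343; lost without 7 libraries, up to 0.0976 without the day 7 library of cow D). BIRC5, survivin, had -1.68 ± 0.63 and did not pass (0.101).

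Of 8 spindle motors and microtubule-associated proteins, 3 fell. NUSAP1, which bundles spindle microtubules, had a median of 35.6 CPM (8.11 to 66.9) on day 4 and 6.41 CPM (3.98 to 17.4) on day 7, a change of -1.85 ± 0.48 (adjusted p = 0.0256; lost without 7 libraries, up to 0.0753 without the day 7 library of cow D). TPX2, which activates AURKA on the spindle, changed by -1.71 ± 0.50 (0.0428; lost without 8, up to 0.115 without the same library). KIF2C, a kinesin that takes apart microtubule ends, changed by -2.16 ± 0.65 (0.0477; lost without 9, up to 0.124 without the day 7 library of cow A, and 0.0542 without cow C). The motor KIF11, which pushes spindle poles apart, had -2.14 ± 0.71 (0.0665), the chromokinesin KIF4A -2.07 ± 0.72 (0.0786), KIF18A, which damps chromosome movement, -1.67 ± 0.60 (0.0881), and DLGAP5, which stabilizes spindle fibres, -2.17 ± 0.76 (0.0808). HMMR, a hyaluronan-binding spindle protein, had -0.46 ± 0.26 (0.275), lower in 3 of 6 cows.

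Of 5 central spindle and cytokinesis genes, 2 fell. KIF23, a kinesin of the central spindle, was lower in 6 of 6 cows and changed by -1.81 ± 0.55 (adjusted p = 0.0483; lost without 9 libraries, up to 0.128 without the day 7 library of cow D, and 0.0506 without cow C). ECT2, which activates RhoA for the contractile ring, changed by -1.61 ± 0.49 (0.0495; lost without 9 libraries, up to 0.123 without the day 7 library of cow A). KIF20A (-2.22 ± 0.79, 0.0861), a motor of cytokinesis, ANLN (-1.59 ± 0.58, 0.0892), the scaffold anillin of the contractile ring, and PRC1 (-0.90 ± 0.47, 0.234), which bundles the central spindle, did not pass. None of the 3 genes of anaphase and mitotic exit passed: CDC20, the activator of the anaphase-promoting complex, had -1.88 ± 0.71 (adjusted p = 0.103), UBE2C, its ubiquitin-conjugating enzyme, -1.86 ± 0.67 (0.0892), and PTTG1, securin, -1.72 ± 0.60 (0.0799). Without the day 7 library of cow F, CDC20 (0.0488) and PTTG1 (0.0392) passed.

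**Figure D3:**
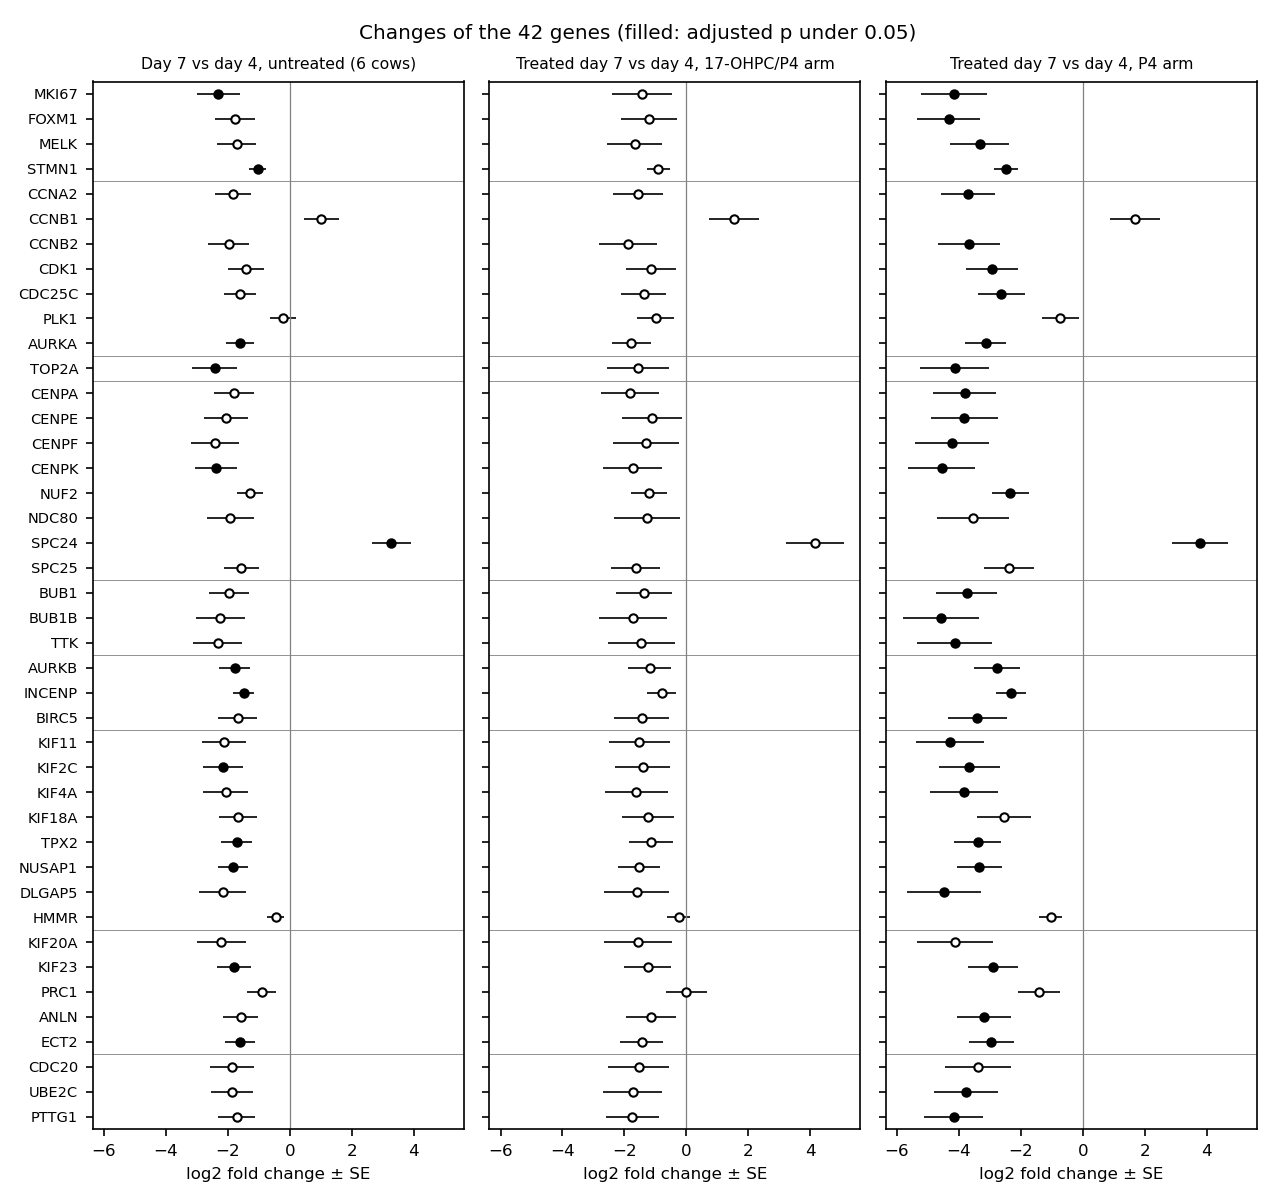
Log2 fold change with its SE for each of the 42 genes in 3 comparisons: untreated day 7 against day 4 over both arms, and treated day 7 against untreated day 4 in each arm; filled circles have an adjusted p under 0.05. The left panel has 13 filled circles, the middle panel 0 and the right panel 33, and SPC24 and CCNB1 lie to the right of 0 in all 3.

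SPC24 and CCNB1 ran against the other members. SPC24 (ENSBTAG00000006185) stood at 31.0, 3.34 and 6.95 CPM in cows A, B and C and at 8.13, 24.8 and 14.8 CPM in cows D, E and F on day 4. On untreated day 7 it stood at 88.5, 44.6 and 113 CPM in cows A, B and C and at 365, 175 and 75.0 CPM in cows D, E and F. Every day 7 value lay above every day 4 value. The log2 change was 3.28 ± 0.63 (adjusted p = 0.00651, higher in 6 of 6 cows, and 2.97 without cow C at 0.0327). CCNB1 (ENSBTAG00000014239) had a median of 69.1 CPM (36.2 to 293) on day 4 and 183 CPM (83.9 to 339) on day 7, higher in 6 of 6 cows, with overlapping groups. Its change of 1.02 ± 0.56 did not pass (adjusted p = 0.264), but it did with the cow as a block (1.31, adjusted p = 0.0284) and when cow A on day 4 was left out (0.0154).

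The rows next to these genes were looked at after their values had been seen. Gene order was taken from RefSeq (ARS-UCD2.0), for names and adjacency only, among the tested protein-coding genes nearest to each member. Next to SPC24, KANK2 rose by 1.77 ± 0.39 (adjusted p = 0.0121, up to 0.0366 without 1 library). SMARCA4 (0.05 ± 0.23) and DOCK6 (0.50 ± 0.21, adjusted p = 0.143) did not pass. Next to CCNB1, CENPH, an inner kinetochore subunit, rose by 1.15 ± 0.29 (0.0233), SLC30A5, a zinc transporter, rose by 1.23 ± 0.35 (0.0374), MRPS36 had 1.85 ± 0.66 (0.0861), and PIK3R1 fell by 0.84 ± 0.17 on the log2 scale (0.00835). The CENPH and SLC30A5 calls were lost without 6 and 7 of the 12 libraries (up to 0.0706 and 0.121 without the day 7 library of cow A), and that of SLC30A5 also without cow C (0.0525).

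Across the 18 libraries, log2 CPM of SPC24 correlated with that of KANK2 at 0.90, of SMARCA4 at 0.43 and of DOCK6 at 0.37. CCNB1 correlated with MRPS36 at 0.92, SLC30A5 at 0.87, CENPH at 0.81 and PIK3R1 at -0.54. High values were not particular to these 2 genes. Next to other members the correlations ran from -0.79 (SPC25 with CERS6) to 0.94 (FOXM1 with RHNO1), with 0.90 for AURKA and CSTF1. These are descriptions over libraries that share cows. MRPS36 stood at 510 CPM in the day 4 library of cow A and at 25.9 to 163 CPM in the other 5 day 4 libraries, and the same library held the highest day 4 level of CCNB1 (293 CPM). Of 128 neighbours of the other 40 members, 6.25% were called higher and 7.03% lower, with a median of -0.02. Whether reads of neighbouring genes add to the counts of SPC24 or CCNB1 was not tested.

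**Figure D4:**
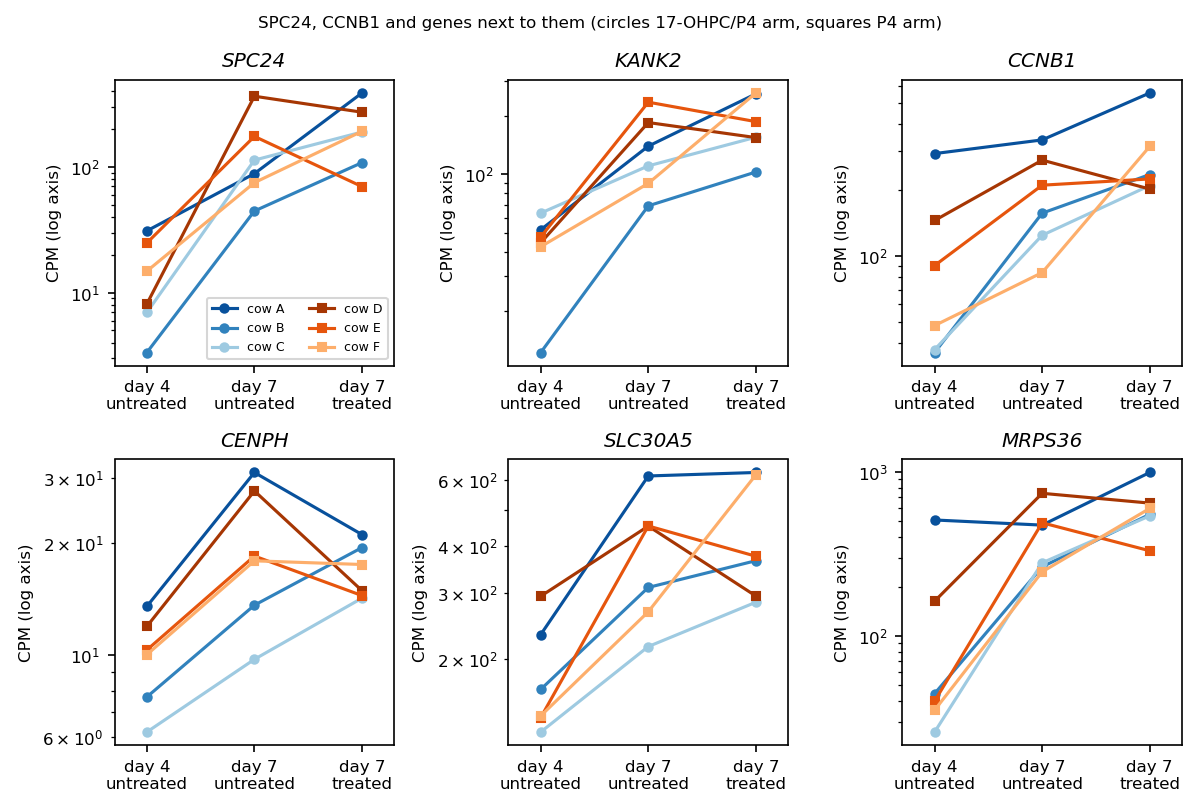
CPM on a log axis for SPC24 and its neighbour KANK2, and for CCNB1 and its neighbours CENPH, SLC30A5 and MRPS36, with 1 line per cow over untreated day 4, untreated day 7 and treated day 7. SPC24 and KANK2 are higher on untreated day 7 than on day 4 in all 6 cows, as are CCNB1, CENPH and SLC30A5, whereas MRPS36 is higher in 5 of them and slightly lower in cow A (510 against 474 CPM).

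Other genes of the cell cycle, taken from lists outside the 42, were lower as well. For scale, 6.27% of all genes tested rose and 4.28% fell in this comparison. Of 90 other mitosis genes 27 fell and 1 rose, the latter being CENPH (median -1.05). They included SMC3, a cohesin subunit (-0.54 ± 0.10, adjusted p = 0.00395, lower in 6 of 6 cows), CDC16, a subunit of the anaphase-promoting complex (-0.39 ± 0.08, 0.00652), the cytokinesis kinase CIT (-1.83 ± 0.39, 0.0111) and the condensin subunit NCAPD2 (-0.95 ± 0.21, 0.0111). These 4 kept their calls without any 1 of the 12 libraries. Of 30 DNA replication genes 13 fell and 0 rose (median -0.88), among them the helicase subunits MCM7 (-0.94 ± 0.17, 0.00539), MCM4 (-1.22 ± 0.23, 0.00547), MCM3 (-1.18 ± 0.22, 0.00578) and MCM2 (-1.27 ± 0.29, 0.0148, and 0.0503 without the day 7 library of cow D).

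Of 17 regulators of G1 and S phase 5 fell and 0 rose (median -0.92). SKP2, which marks the inhibitor p27 for destruction, changed by -1.62 ± 0.33 (adjusted p = 0.00808), the E2F partner TFDP1 by -0.53 ± 0.13 (0.0184), E2F2 by -1.98 ± 0.48 (0.0198) and CDK2 by -0.92 ± 0.23 (0.0209). Leaving out the day 7 library of cow D gave the last 3 an adjusted p of 0.0760, 0.0634 and 0.0661. Of 21 cell cycle inhibitors and quiescence regulators 3 rose and 2 fell (median 0.18), where 6.27% of all genes tested rose and 4.28% fell. CDKN1B, the gene of p27, changed by 0.94 ± 0.26 (0.0339), CDKN1C, the gene of p57, by 1.29 ± 0.38 (0.0444), and KLF4, a factor that restrains division in epithelia, by 1.76 ± 0.42 (0.0181). The first 2 had adjusted p of 0.0924 and 0.115 when the day 7 library of cow A was left out, and 0.0520 and 0.126 without cow C. KLF4 had 0.0512 when the day 4 library of cow E was left out. LIN9, of the MuvB complex that acts at mitotic promoters, fell by 0.97 ± 0.28 on the log2 scale (0.0370, 0.0953 without the day 7 library of cow D and 0.0704 without cow C).

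Of 6 steroid receptors 1 rose and 2 fell, where 6.27% of all genes tested rose and 4.28% fell. PGR, the progesterone receptor, changed by -1.05 ± 0.26 (adjusted p = 0.0209) and ESR1, the estrogen receptor alpha, by -0.79 ± 0.22 (0.0320), both lower in 6 of 6 cows and both lost without the day 7 library of cow A (0.0644 and 0.0936). Without cow C, ESR1 had 0.0788. GPER1, which binds estrogen at membranes, changed by 2.52 ± 0.50 (0.00739). Markers of T and NK cells, which can divide, moved with the day: their 11 genes summed to 112 to 329 CPM on day 4 and 59.1 to 155 CPM on untreated day 7. All 11 had negative values and 2 fell (DESeq2 called 6 lower), CD3E (-0.80 ± 0.21, 0.0292) and IL2RB (-0.88 ± 0.21, 0.0174), with no marker at 0 in any library. The 2 calls were lost without 7 and 3 of the 12 libraries (CD3E up to 0.0937 without the day 7 library of cow D, IL2RB up to 0.0551 without that of cow A), and CD3E had 0.103 without cow C. Epithelial markers summed to 2910 to 4931 CPM on day 4 and 2551 to 3769 CPM on untreated day 7, lower in 6 of 6 cows, and neutrophil markers to 6.08 to 153 CPM and 56.1 to 440 CPM, higher in 5 of 6. In both of these lists 0 genes were called by edgeR, with 1 of 8 and 0 of 5 tested markers at an unadjusted p under 0.05, and DESeq2 called 1 epithelial marker higher and 0 neutrophil markers. The neutrophil markers S100A8, S100A9, MPO and ELANE were at 0 in at least 1 library. The part of these cell types in the lower mitosis genes was not tested.

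By cow, the median change of the 42 genes from day 4 to day 7 was -3.65, 0.42 and 0.14 in cows A to C, and -2.53, -3.45 and -1.52 in cows D to F. In cows A, D, E and F, 39 or 40 of the 42 genes were lower on day 7; cow B had 6 such genes and cow C 13. Within the 17-OHPC/P4 arm no member was called (0.0407% of all genes tested), and DESeq2 called 0. An unadjusted p under 0.05 was found for 3 members, against 1890 of the 19638 genes tested. SPC24 had 2.57 ± 0.87 (adjusted p = 0.313, higher in 3 of 3 cows; 1.95 at 0.673 without cow C) and STMN1 -0.89 ± 0.37 (0.464, lower in 3 of 3). Within the P4 arm 4 genes fell and 1 rose, against 8.65% of all genes tested, and 38 of the 42 were lower in 3 of 3 cows. INCENP changed by -2.20 ± 0.48 (adjusted p = 0.0163), TPX2 by -2.51 ± 0.73 (0.0468), NUSAP1 by -2.38 ± 0.70 (0.0478), MKI67 by -3.50 ± 1.04 (0.0492) and SPC24 by 3.99 ± 0.92 (0.0191).

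These 5 calls of the P4 arm rested on the libraries at hand: 0 were left when cow E or F on day 4, or cow D on day 7, was omitted. There was 1 call when the day 4 library of cow D or the day 7 library of cow E was omitted, and 12 when that of cow F on day 7 was. With the cow as a block 11 fell and 1 rose, while calls over all genes tested went from 1698 to 2975. DESeq2 called 31 lower and 1 higher. For DESeq2 and for the runs with 1 library left out, counts over all genes are not given here. The difference between the arms in the day 4 to day 7 change was called for 0 members (0% of all genes tested) by edgeR or DESeq2. There was 1 member at an unadjusted p under 0.05, against 1514 of the 19638 genes tested. The median difference, 17-OHPC/P4 arm minus P4 arm, was 1.26. INCENP had 1.41 ± 0.66 (95% interval 0.01 to 2.82, adjusted p = 0.644) and CENPF 2.82 ± 1.51 (-0.41 to 6.05, 0.704).

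**Figure D5:**
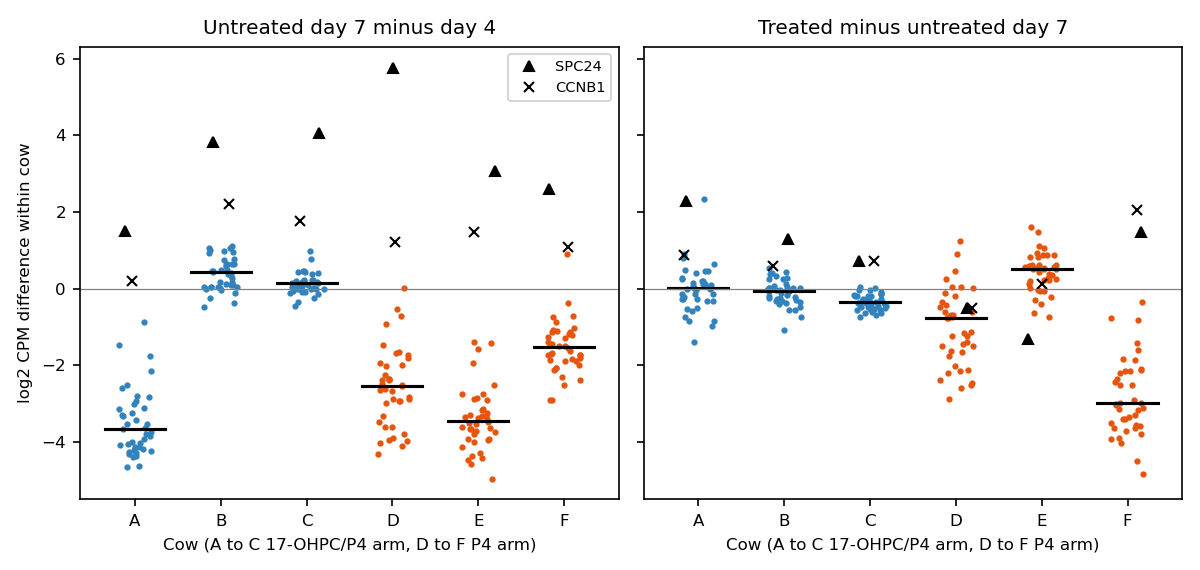
Within-cow log2 CPM differences of the 42 genes (1 point per gene, bar at the median) from untreated day 4 to day 7 (left) and from untreated to treated day 7 (right), with SPC24 and CCNB1 marked. The left medians run from -3.65 (cow A) to 0.42 (cow B), and the right medians lie between -0.36 and 0.03 in cows A to C and at -0.76, 0.51 and -2.99 in cows D, E and F.

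The next comparison set the treated against the untreated day 7 of the same cows. No member was called in the 17-OHPC/P4 arm, the P4 arm or both arms together, and 0%, 0% and 0% of all genes tested were. At an unadjusted p under 0.05 there were 0, 2 and 1 members, against 371, 596 and 850 of the 19638 genes tested. DESeq2 called 0 members in each. The median log2 difference of the 42 genes was -0.22 in the 17-OHPC/P4 arm, -0.91 in the P4 arm and -0.58 over both. Medians by cow were 0.03, -0.06 and -0.36 in A, B and C, and -0.76, 0.51 and -2.99 in D, E and F. The 3 cows of the P4 arm therefore differed among themselves: 35 of 42 genes were lower after treatment in D and 40 in F, but 9 in E.

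In the P4 arm STMN1 had the smallest p. It stood at 46.4, 43.2 and 78.3 CPM in cows D, E and F on untreated day 7 and at 22.3, 25.5 and 19.7 CPM after treatment. The difference was -1.28 ± 0.38 (95% interval -2.09 to -0.48; unadjusted p = 0.00406 and adjusted p = 1 in edgeR). PTTG1 had -2.03 ± 0.88 (-3.91 to -0.16, adjusted p = 1). In the 17-OHPC/P4 arm STMN1 stood at 60.5, 60.2 and 98.3 CPM in cows A, B and C without and at 55.0, 60.9 and 94.8 CPM with treatment (-0.02 ± 0.37, 95% interval -0.81 to 0.77). SPC24 there had 1.58 ± 0.83 (-0.21 to 3.36, adjusted p = 0.99, higher in 3 of 3 cows), with 387, 108 and 190 CPM after treatment, and PLK1 had -0.72 ± 0.60 (0.99, lower in 3 of 3). AURKA, CENPA and PTTG1 were lower after treatment in 6 of 6 cows, with -0.84 ± 0.44, -1.02 ± 0.65 and -1.23 ± 0.60 over both arms (adjusted p = 0.896 each). None of the 3 passed, and the share of all genes tested that were lower in 6 of 6 cows is not given here.

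The responses of both arms were then compared, at doses that differ. The difference of the treatment responses, 17-OHPC/P4 minus P4, was called for 0 members by edgeR (0% of all genes tested) or DESeq2, with a median of 0.69. There was 1 member at an unadjusted p under 0.05, against 247 of the 19638 genes tested. For 5 of the 42 genes the within-cow responses of the arms did not overlap, against 7.95% of all genes tested: STMN1, CCNA2, AURKA, HMMR and PRC1. STMN1 had 1.26 ± 0.53 (95% interval 0.14 to 2.39; unadjusted p = 0.0304 and adjusted p = 1 in edgeR) and SPC24 1.78 ± 1.16 (-0.70 to 4.26, adjusted p = 1). PRC1 responded by 2.34, 0.32 and 0.05 on the log2 scale in cows A, B and C and by -0.35, -0.07 and -0.80 in D, E and F (difference 1.08 ± 0.93, -0.91 to 3.08). HMMR responded by 0.04, 0.03 and 0.02 in A, B and C and by -0.60, -0.21 and -0.34 in D, E and F (0.41 ± 0.52, -0.70 to 1.53). Both 95% intervals included 0 (adjusted p = 1 each).

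Treated day 7 samples of both arms were also compared with each other. None of the 42 was called (0.0102% of all genes tested), and the median was 0.95, with 40 positive values. There was 1 member at an unadjusted p under 0.05, against 1792 of the 19638 genes tested. STMN1, the 1 of the 42 whose groups did not overlap in CPM (14.4% of all genes tested did not), stood at 55.0, 60.9 and 94.8 CPM in cows A, B and C and at 22.3, 25.5 and 19.7 CPM in D, E and F. Its difference was 1.53 ± 0.38 (95% interval 0.72 to 2.34, adjusted p = 0.279 in edgeR), and DESeq2 called it (0.0167). FOXM1 had 1.91 ± 0.93 (-0.07 to 3.89, adjusted p = 0.567) and MKI67 0.79 ± 0.95 (-1.23 to 2.82, 0.884). The interval of MKI67 reaches from a lower to a higher level, so a difference was not detectable and likeness was not shown.

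The arms were also compared on samples taken before any injection. On untreated day 4 the 42 genes had a median difference of -0.96 (17-OHPC/P4 minus P4), with 41 negative values. Of the 42, 0 were called (2.76% of all genes tested). An unadjusted p under 0.05 was found for 2 members, against 4368 of the 19638 genes tested. INCENP had -1.40 ± 0.47 (95% interval -2.40 to -0.39, adjusted p = 0.106 in edgeR, and 0.0335 in DESeq2). HMMR had -0.82 ± 0.37 (-1.61 to -0.03, 0.208, and 0.0348 without the day 4 library of cow A). In CPM the groups did not overlap for 7 of the 42 genes, against 31.5% of all genes tested: MKI67, TOP2A, CENPE, CENPF, INCENP, KIF23 and ANLN. After TMM scaling this held for 3 of the 42, MKI67, CENPE and CENPF, against 31.1% of all genes tested. On untreated day 7 the median was 0.33, with 0 called by edgeR (0.00509% of all genes tested) or DESeq2. At an unadjusted p under 0.05 there were 0 members, against 2088 of the 19638 genes tested. In CPM the groups overlapped for all 42 genes there, while 15.2% of all genes tested did not overlap. After TMM scaling 1 of the 42, HMMR, did not overlap (-0.45 ± 0.37, adjusted p = 0.695), against 13.9% of all genes tested. SPC24 had -1.47 ± 0.83 (-3.24 to 0.31, 0.551).

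Finally, treated day 7 was set against untreated day 4 in each arm, where day, cycle and injection all differ. In the 17-OHPC/P4 arm 0 members were called (0.682% of all genes tested), and the median was -1.42. An unadjusted p under 0.05 was found for 4 members, against 4025 of the 19638 genes tested. SPC24 had 4.15 ± 0.93 (adjusted p = 0.0528) and AURKA -1.78 ± 0.63 (0.157, lower in 3 of 3 cows). With the cow as a block SPC24 (0.0120) and CCNB1 (0.0445) rose, while calls over all genes tested went from 134 to 1029. DESeq2 called SPC24 and AURKA, and without the day 4 library of cow A 2 members were called. Without cow C SPC24 had 3.98 (0.205). By cow the median was -3.76, 0.34 and -0.18 in A, B and C.

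In the P4 arm 32 members fell and 1 rose from untreated day 4 to treated day 7, against 7.48% of all genes tested, with a median of -3.40. STMN1, at 108, 199 and 157 CPM in cows D, E and F on day 4, changed by -2.48 ± 0.39 (adjusted p = 0.00634). INCENP changed by -2.32 ± 0.48 (0.0161), AURKA by -3.14 ± 0.67 (0.0170) and NUSAP1 by -3.34 ± 0.73 (0.0179), and SPC24 rose by 3.78 ± 0.91 (0.0266). All 4 proliferation genes fell, as did the 3 checkpoint kinases, the 3 passenger complex genes and TOP2A. Also lower were 5 of 7 entry kinases and cyclins, 6 of 8 motors and microtubule-associated proteins, 3 of 5 cytokinesis genes and 2 of 3 exit genes; of the 8 kinetochore genes 5 fell and SPC24 rose. The 9 that did not pass were CCNB1, PLK1, NDC80, SPC25, KIF18A, HMMR, KIF20A, PRC1 and CDC20, and 39 of the 42 were lower in 3 of 3 cows. With the cow as a block 36 fell and 2 rose, the added one being CCNB1 (0.0330), while calls over all genes tested went from 1468 to 2702.

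The 33 calls depended on most single libraries. Without the treated library of cow D or F, or the day 4 library of cow E or F, 1 member was called. There were 15 calls without the day 4 library of cow D and 36 without the treated library of cow E. Calls over all genes in these runs are not given here. STMN1 was the 1 gene of the 33 that kept its call without any 1 of the 6 libraries (adjusted p up to 0.0440), and the others had adjusted p up to 0.192. The P4 arm and the 17-OHPC/P4 arm were not tested against each other in this change from day 4. T and NK cell markers summed to 147 to 329 CPM on day 4 and 87.9 to 93.2 CPM after treatment in the P4 arm. Epithelial sums went from 4038 to 4931 CPM down to 2190 to 3786 CPM, macrophage sums from 207 to 342 CPM down to 46.9 to 134 CPM, and stromal sums from 896 to 1808 CPM to 187 to 1517 CPM, each lower in 3 of 3 cows. None of the 11 T and NK, 8 epithelial, 7 macrophage or 8 stromal markers was called by edgeR (7, 1, 0 and 0 at an unadjusted p under 0.05), and DESeq2 called 3 T and NK markers lower and 0 of the other 3 lists. Endothelial sums went from 35.9 to 59.2 CPM down to 21.0 to 32.1 CPM, also lower in 3 of 3 cows. DESeq2 nevertheless called 1 of 7 endothelial markers higher. The part of these cell types in the 33 calls was not tested.

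Several members share their place with other genes. In RefSeq (ARS-UCD2.0), 8 of the 42 overlap another protein-coding gene: CCNA2 with EXOSC9, CDC25C with FAM53C and SLBP2, PLK1 with ERN2, INCENP with CSKMT, NUSAP1 with CHP1, OIP5 and NDUFAF1, KIF20A with CDC23, KIF23 with PAQR5 and ANLN with MATCAP2. Since no source used here gives the strand setting of the counting, the values of these 8 are uncertain to that extent: reads of a member and of its overlapping partner may not have been told apart.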

How the data were processed

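The deposited table holds whole-number counts per gene, made by the authors and not normalized, for 38001 Ensembl identifiers, 17715 without a symbol. Per the submitters' processing notes, the tools were STAR, featureCounts, cutadapt, FastQC and DESeq2, listed with no versions or roles. What genome build, annotation, strand setting and pair counting were used is not given in the sources used here. Of counts from 1 to 20, 78.3% were even, against 50.8% of high counts, so independent fragments may be fewer than counts. The table held 0 columns of other samples.

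Genes were filtered with filterByExpr, scaled with TMM factors (0.881 to 1.16) and tested with edgeR 4.0.16 in R 4.3.3 (robust quasi-likelihood F test, 1 mean per group over all 18 libraries), with Benjamini-Hochberg adjustment over 19638 genes. Intervals are 95% and not adjusted. Within-cow changes use log2 CPM with a prior count of 2. Replicates are separate cows within an arm. Samples with the same letter in the labels come from 1 cow. Deviations from group means correlated at a median of 0.37 over 18 pairs of libraries of the same cow and -0.14 over 36 pairs of different cows. Deviations within a group cancel, so these medians are not independent of each other. Same-cow correlations were 0.39 to 0.72 in cows A to C but only -0.07 to 0.36 in cows D to F. The pooled median therefore does not show pairing in cows D to F. Fits with the cow as a block are given for both arms where they change a result. edgeR's common biological coefficient of variation came to 51.4% (39.4% in the blocked fit).

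Alternatives were that replicate block, DESeq2 1.42.0, RLE size factors, no low-count filter, the compared groups only, each library left out, and cow C left out. The scripts were tested on simulated data. The members and lists were chosen with earlier results of these data known. Named are, for each role, the gene of highest mean CPM and of smallest p, MKI67 and TOP2A, per comparison up to 4 called members (or the 2 of smallest p), and up to 4 called genes of each other list; other members are given for completeness. Levels are not compared between genes, since transcript lengths were not used. The values of 1 neighbouring gene are not reported here.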

Additional observations from a re-analysis of the deposited data

How the results depend on the processing

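For the genes named by the rule above, in the comparison each was named for, no log2 fold change changed sign under any alternative run. The sign was not checked in this way for other genes. Over both arms, the 13 genes called from untreated day 4 to day 7 became 37 with DESeq2, 7 without the low-count filter and 2 to 26 with 1 library left out. In the P4 arm the 5 called became 12 with the replicate block, 32 with DESeq2, 2 without the filter, 22 with the compared groups only and 0 to 12 with 1 library left out. From untreated day 4 to treated day 7, the 33 of the P4 arm became 14 without the filter and 1 to 36 with 1 library left out, and the 0 of the 17-OHPC/P4 arm became 2 with the replicate block, 2 with DESeq2 and 0 to 2 with 1 library left out. Between arms, DESeq2 called 1 on treated day 7 and 1 on untreated day 4, where leaving out 1 library gave 0 to 1. From untreated day 4 to treated day 7 the replicate block gave 38 calls in the P4 arm, and over both arms 16 from untreated day 4 to day 7. Calls over all genes tested also rose with the block, from 1468 to 2702 and from 2073 to 3272. For the other alternative runs they are not given here, so shifts in these counts are not read as particular to the 42 genes. The block changed no other call among the 42 genes: the 6 other comparisons that could be paired by cow had 0 calls with and without it. With 3 cows a group and a biological coefficient of variation of 51.4%, a missing call does not show that levels were alike. RLE size factors moved no count of calls by over 1.5 times; KIF23 had an adjusted p of 0.0508 with them.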
